A study of Mus musculus with 6 samples.

Results

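The genes described here encode the enzymes that add methyl groups to histone lysines or remove them, other than the genes of Lsd1 itself and its closest relative (Kdm1a and Kdm1b). They were listed by name, and 44 of the 26180 mouse genes with a curated RefSeq transcription start site (TSS) are on the list: 16 genes of the Jumonji C (JmjC) family, mostly demethylases, and 28 genes of the methyltransferase families. What was measured at them is where Lsd1 sat on chromatin. The cells were C2C12, a mouse myoblast line that forms myotubes in low serum and can be turned towards the fat lineage by an adipogenic cocktail. Lsd1 chromatin immunoprecipitation and sequencing (ChIP-seq) was done after 1 day, in 3 conditions. Wild-type cells were kept either in myogenic medium (2% horse serum) or in adipogenic medium, and LSD1(OE) cells were kept in adipogenic medium too. The libraries are called myogenic, adipogenic and LSD1(OE) after them. The adipogenic medium held isobutylmethylxanthine, indomethacin, dexamethasone, insulin, T3 and rosiglitazone in 10% fetal calf serum, so the media differed in serum and in every one of these agents. The LSD1(OE) cells are a stable line made with a lentivirus that carries Flag-tagged LSD1 behind a tetracycline-dependent promoter, selected with G418 and induced with doxycycline at 2 µg/ml. The wild-type cells are not a vector control, so the level of LSD1, the selected line and doxycycline cannot be told apart. Each condition had 1 ChIP library with 1 input library (chromatin sequenced without the antibody), and no replicate, so no difference between conditions could be tested.

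Lysine methylation is read by position. Methylated H3K4 marks active promoters and enhancers, H3K36 and H3K79 methylation accompany transcribed genes, and H3K9 and H3K27 methylation mark silent chromatin. Lsd1 is an amine oxidase that removes mono- and dimethyl marks from H3K4 and, as the paper states, from H3K9. JmjC enzymes use iron and oxoglutarate instead and can also remove trimethyl marks. The methyltransferases mostly carry a SET domain, with Dot1l as the exception. In muscle several of these enzymes have known roles: Ezh2 silences muscle genes in myoblasts, Ehmt2 and Suv39h1 methylate H3K9 there, and Smyd1 is made in heart and skeletal muscle, where it is needed to assemble sarcomeres.

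A promoter peak was a called peak whose centre lay within 2000 bp of a TSS of the gene. An internal peak lay inside the gene, over 2000 bp from each of its TSSs. The score of a peak is 10 × -log10 of the p-value that the peak caller MACS gave for ChIP over input, and 50 is the score of its p cut-off. A score grows with the number of tags, so between libraries it was set side by side without a test. The DNA under the summits of the strongest peaks is shown as windows of 200 bp (mm10, read 5′ to 3′ on the strand of the gene). Capitals mark matches on either strand to a short list of motifs: the E-box CANNTG that myogenic factors bind, the AP-1 site TGANTCA, the GC box GGGCGG, the CCAAT box, the ETS site CCGGAAG, the TEAD site GGAATG, and the RUNX site TGTGGT. The GC box on the opposite strand reads CCGCCC. The promoter windows shown first belong to the members with the highest scores in myogenic medium whose window holds no untranslated exon:
Setd7, chr3:51561267-51561466, - strand: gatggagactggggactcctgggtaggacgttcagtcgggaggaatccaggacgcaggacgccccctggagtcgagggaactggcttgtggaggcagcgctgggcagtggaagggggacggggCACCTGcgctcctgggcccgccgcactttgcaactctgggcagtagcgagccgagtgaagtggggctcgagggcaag
Kdm7a, chr6:39207010-39207209, - strand: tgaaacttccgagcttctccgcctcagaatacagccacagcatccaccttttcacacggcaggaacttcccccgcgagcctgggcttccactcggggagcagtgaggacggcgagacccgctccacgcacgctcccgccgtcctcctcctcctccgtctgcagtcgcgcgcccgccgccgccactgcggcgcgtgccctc
Setd5, chr6:113077043-113077242, + strand: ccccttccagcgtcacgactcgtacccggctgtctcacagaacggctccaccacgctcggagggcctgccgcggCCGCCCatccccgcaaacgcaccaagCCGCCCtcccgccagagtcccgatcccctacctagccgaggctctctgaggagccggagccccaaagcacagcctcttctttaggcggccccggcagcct

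These 3 windows were upstream of the gene, at 544, 337 and 496 bp from the TSS, and were 67.0%, 68.5% and 69.5% G and C with 13, 23 and 19 CpG. Setd7 held 1 E-box and Setd5 held 2 GC boxes, while Kdm7a matched no motif on the list. Next are the strongest promoter peaks of LSD1(OE) cells at members that had none in wild-type cells in the same medium, again without untranslated exons:
Setd3, chr12:108178870-108179069, - strand: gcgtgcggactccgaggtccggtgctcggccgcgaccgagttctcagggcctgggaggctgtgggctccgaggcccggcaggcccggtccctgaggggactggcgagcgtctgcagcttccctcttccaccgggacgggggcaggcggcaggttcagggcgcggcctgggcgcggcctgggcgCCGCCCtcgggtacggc
Setd2, chr9:110532230-110532429, + strand: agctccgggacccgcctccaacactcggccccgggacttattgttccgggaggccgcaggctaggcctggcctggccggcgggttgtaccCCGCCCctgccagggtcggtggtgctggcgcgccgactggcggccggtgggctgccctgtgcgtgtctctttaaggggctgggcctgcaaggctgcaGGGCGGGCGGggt
Kdm4b, chr17:56325050-56325249, + strand: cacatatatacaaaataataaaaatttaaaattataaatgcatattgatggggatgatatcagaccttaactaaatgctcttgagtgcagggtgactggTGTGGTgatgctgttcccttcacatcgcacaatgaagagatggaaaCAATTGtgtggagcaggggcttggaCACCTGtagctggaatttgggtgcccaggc

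Setd3 and Setd2 lay in GC-rich DNA with 24 and 18 CpG and held 1 and 3 GC boxes. Kdm4b, 900 bp upstream of its TSS, was 41.5% G and C with 1 CpG, and it matched E-boxes at 2 places and the RUNX site at 1. The last set shows strong internal peaks in myogenic medium, those of Dot1l and Smyd4:
Dot1l, chr10:80757811-80758010, + strand: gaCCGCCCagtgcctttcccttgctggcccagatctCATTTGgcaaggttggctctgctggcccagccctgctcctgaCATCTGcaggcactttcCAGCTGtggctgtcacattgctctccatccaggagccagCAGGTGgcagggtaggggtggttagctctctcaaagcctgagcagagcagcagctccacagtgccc
Smyd4, chr11:75399579-75399778, + strand: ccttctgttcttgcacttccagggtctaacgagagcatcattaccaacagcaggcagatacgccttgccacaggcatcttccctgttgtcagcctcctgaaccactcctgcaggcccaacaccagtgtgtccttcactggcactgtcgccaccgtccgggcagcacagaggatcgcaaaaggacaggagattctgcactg

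The Dot1l window lay in an intron at 2708 bp from the TSS and the Smyd4 window in a coding exon at 51246 bp. They held 1 and 6 CpG. Dot1l matched the E-box at 4 places and Smyd4 at none.

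After duplicates were limited the myogenic, adipogenic and LSD1(OE) ChIP libraries held 46155625, 63915769 and 55193310 tags, and the inputs held 87508211, 81567427 and 100711088. MACS called 43426, 18893 and 33533 peaks, which took 7.12%, 3.20% and 5.28% of the ChIP tags. The library with the most tags thus had the fewest peaks and the lowest share of tags in peaks. The smallest peaks held 27, 35 and 30 tags, so binding below those counts was not detectable. A lower share of tags in peaks moved with every lower count in adipogenic medium given here, and its part in them was not tested.

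In myogenic medium 39 of the 44 genes (88.6%) had a promoter peak, beside 46.8% of all 26180 genes. In the adipogenic library 23 (52.3%) had one, beside 27.0%, and in the LSD1(OE) library 31 (70.5%), beside 37.3%. Most of these promoters are rich in CpG. The ratio of observed to expected CpG around the TSS had a median of 0.834 over the members and 0.539 over all genes, and 38 members had a ratio of at least 0.6, as did 45.3% of all genes. Among those 38, a promoter peak was called at 35 (92.1%), 21 (55.3%) and 29 (76.3%) in the myogenic, adipogenic and LSD1(OE) libraries. The shares over all 11853 genes with such a ratio were 79.6%, 48.1% and 64.3%, so the members were above genes of like CpG content in each library, by less than they were above all genes. The 6 members below that ratio were Ash1l, Kdm4a, Kdm6b, Nsd1, Smyd1 and Smyd5, and 4, 2 and 2 of them had a promoter peak.

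**Figure D1:**
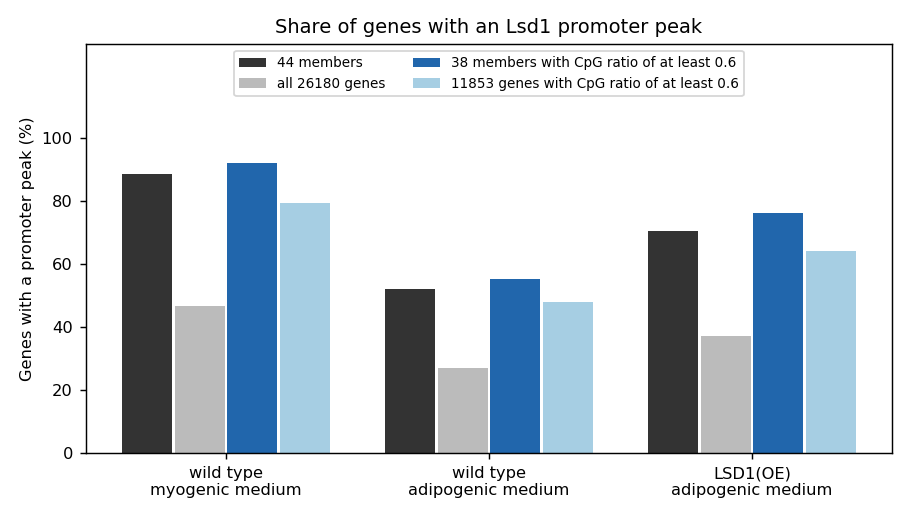
Share of genes with an Lsd1 promoter peak (percent, y axis) in the 3 libraries (x axis), for the 44 members, all genes, and the members and genes with a CpG ratio of at least 0.6 at the TSS. The members' bars stand at 88.6%, 52.3% and 70.5%, and the gap to the other genes is smaller between the CpG-rich bars than between the bars for all genes.

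By pattern, 22 members had a promoter peak in all 3 libraries (23.5% of all genes did), 8 in myogenic medium and in LSD1(OE) cells, 1 in both media of wild-type cells (Kmt2d), 8 in myogenic medium alone, 1 in the LSD1(OE) library alone (Setdb1), and 4 in none (Kmt2a, Suv39h1, Nsd1 and Ash1l). Over all 26180 genes the patterns after the first held 2819, 663, 2613, 678 and 13007 genes, in the order given. The count of 22 became 13 when only peaks with a false discovery rate under 0.1% were kept, and 14 when a peak was given to the nearest TSS alone. In all, 16 members had a promoter peak in myogenic but not in adipogenic medium of wild-type cells (20.7% of all genes), and 0 had the opposite pattern, which 0.932% of all genes had. LSD1(OE) cells had a promoter peak at 9 members without one in wild-type cells in adipogenic medium (13.4% of all genes). Of the 39 members with a promoter peak in myogenic medium, 59.0% also had one in adipogenic medium and 76.9% also had one in LSD1(OE) cells. Over all genes with a myogenic promoter peak these shares were 55.7% and 73.3%, and over the CpG-rich ones 59.1% and 77.1%, so the members lost and kept their peaks about as often as genes of like promoters.

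Promoter peaks were called at all 16 JmjC genes in the myogenic library, at 9 in the adipogenic and at 12 in the LSD1(OE) library. The background for these counts, and for those of each class below, is 46.8%, 27.0% and 37.3% of all genes. Over genes with a CpG ratio of at least 0.6 it is 79.6%, 48.1% and 64.3%. Among the 10 genes for H3K9 demethylases and their relatives the counts were 10, 4 and 7. Kdm7a, which acts on H3K9 and H3K27, had the strongest of them in myogenic medium, with a score of 1006 and 232 tags, against 200 and 109 tags in the adipogenic library and 349 and 124 tags in the LSD1(OE) one. Kdm3a, an H3K9 demethylase also known for its part in fat metabolism, scored 598, 220 and 419 in the same order. In both genes the score was highest in myogenic medium and lowest in wild-type cells in adipogenic medium. Kdm4a, which acts on trimethylated H3K9 and H3K36, scored 461, 252 and 169, so that LSD1(OE) cells were the lowest. Jmjd1c has a pair of promoters, and both carried Lsd1 in every library. The upstream promoter of Jmjd1c scored 652, 104 and 199, and the downstream one 591, 145 and 324, so the upstream one was the stronger in myogenic medium and the weaker in both adipogenic libraries.

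Kdm3b, Kdm4b and Kdm4c had promoter peaks in myogenic medium (scores of 180, 292 and 278) and in LSD1(OE) cells (177, 171 and 144), with none in wild-type cells in adipogenic medium. Kdm4d, Phf2 and Phf8 had them in myogenic medium alone, at scores of 63.0, 80.2 and 189. The peaks of Kdm4d and Phf2 were close to the caller's limit, with 33 tags at Kdm4d and 37 at Phf2. Multiplied by the ratio of ChIP to input tags, their scores were 33.2 and 42.3. That product approximates a score without the scaling of ChIP tags, and peaks were not called again. The Kdm4d peak also lay 262 bp from the TSS of Cwc15.

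The H3K36 demethylase genes differed from each other. Kdm2b had a promoter peak in all 3 libraries (scores of 336, 129 and 88.3), whereas Kdm2a had one in myogenic medium alone, with a score of 140 and 78 tags. By the same approximation the LSD1(OE) peak of Kdm2b would score 48.4 without the scaling of ChIP tags, just below the cut-off. The strongest peak of Kdm2b did not lie at the same one of its 4 TSSs in every library. In myogenic medium it lay at an inner TSS. In the adipogenic and LSD1(OE) libraries it lay near an upstream TSS, where myogenic medium gave a score of 242. The adipogenic library also had a peak at an inner TSS, with a score of 71.3 and 64 tags. Both H3K4 demethylase genes, whose products remove trimethyl marks that Lsd1 cannot, had promoter peaks throughout. Kdm5a scored 318, 68.9 and 414, highest in LSD1(OE) cells, and its peak lay 361 bp from the TSS of Ccdc77 in myogenic medium. Kdm5b scored 239, 159 and 114, lowest in LSD1(OE) cells.

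Kdm6b, the H3K27 demethylase gene of the list, had promoter peaks in every library, but the strongest was not always at the same place. In myogenic medium the peak lay in an intron, 899 bp from the TSS, with a score of 98.2. In the adipogenic and LSD1(OE) libraries the strongest peak lay 1598 and 1792 bp upstream, with scores of 104 and 382. LSD1(OE) cells had a second peak of Kdm6b downstream, with a score of 230, and it overlapped the myogenic peak. The promoter of Kdm6b is poor in CpG (a ratio of 0.33). Jmjd6, a lysyl hydroxylase of the JmjC family, scored 791, 322 and 372, and the TSS of Mettl23 lay within 72 bp of the centre of each of its peaks.

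Of the 28 methyltransferase genes 23, 14 and 19 had a promoter peak in the myogenic, adipogenic and LSD1(OE) libraries. By median percentile among all genes with a promoter peak, the H3K4 methyltransferase genes were the strongest class in myogenic medium, at 87.0 over 7 of 8 genes. In the adipogenic and LSD1(OE) libraries it was 50.9 and 58.8, each over 6 genes that were not all the same. The myogenic peaks of Kmt2b, Kmt2c and Kmt2e were centred nearer to the TSS of another gene. At Kmt2b, whose percentile was 87.0, the centre lay 26 bp from the TSS of Mir3569 and 628 bp from its own. Setd7, which monomethylates H3K4 and many other proteins, was the highest member of every library, with scores of 2045, 817 and 2005. Its peaks covered the TSS, 2875, 2926 and 2655 bp long, with 340, 311 and 349 tags. Per kb of peak and 1000000 ChIP tags that is a density of 2.56, 1.66 and 2.38, so LSD1(OE) cells were close to wild-type cells in myogenic medium and above wild-type cells in adipogenic medium. Kmt2e, which has a SET domain without clear enzyme activity, scored 2019, 685 and 872. At Kmt2e the density was 2.71, 1.69 and 1.69, so LSD1(OE) cells matched the wild-type cells in adipogenic medium. The centre of that peak was 225 bp from the TSS of 5031425E22Rik in myogenic medium and nearer to it than to that of Kmt2e in all 3 libraries.

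Kmt2d, which marks enhancers with H3K4 methylation and is needed for both the muscle and the fat program, scored 1014 in myogenic medium and 114 in adipogenic medium, and had no promoter peak in LSD1(OE) cells. The myogenic peak covered the TSS with its summit 1007 bp upstream (190 tags). The strongest adipogenic peak lay 1650 bp downstream in an intron (114 tags), and a weaker one upstream, with a score of 107 and 103 tags, overlapped the myogenic peak. The nearest peak to the TSS in LSD1(OE) cells was 9934 bp away, scored 272 and covered the TSS of Rhebl1. Kmt2b scored 829, 132 and 211 and Kmt2c 677, 157 and 264, the lowest in both cases being wild-type cells in adipogenic medium. Setd1b scored 417, 92.1 and 243. Setd1a, its paralog, scored 229 in myogenic medium and 162 in LSD1(OE) cells, with none in adipogenic medium. Kmt2a had no promoter peak and no peak inside the gene in any library, and the nearest peaks were 23891, 24242 and 23928 bp upstream.

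Among the 7 genes for H3K9 methyltransferases 5, 3 and 4 had a promoter peak. Setdb2 scored 621, 131 and 475, with the TSS of Cab39l 32 bp from the centre of its myogenic peak. Suv39h2 scored 483, 91.0 and 139 and Ehmt1 437, 83.0 and 123, high in myogenic medium and low in both adipogenic libraries. Their closest relatives differed from them. Ehmt2, also called G9a, had a promoter peak in myogenic medium alone (a score of 368 and 109 tags). The nearest peaks in the other libraries, adipogenic then LSD1(OE), were 4309 and 3867 bp upstream, with scores of 211 and 514. The TSS of Zbtb12 was 3554 bp from the centre of the myogenic peak, so those upstream peaks cannot be given to Ehmt2 from position alone. Suv39h1 had no promoter or internal peak in any library, the nearest being 21942, 70622 and 21702 bp away. Setdb1 was the single member whose promoter had a peak just in the LSD1(OE) library, and that peak was one of the weakest: a score of 52.4 from 36 tags, 548 bp inside the gene. Multiplied by the ratio of ChIP to input tags its score would be 28.7, below the cut-off. Outside the promoter window, myogenic medium had higher peaks near Setdb1. An internal one scored 133 with 47 tags, and another lay 3199 bp upstream of the TSS and scored 94.4 with 44 tags. Prdm2 had a promoter peak in myogenic medium alone, with a score of 155 and 65 tags.

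Ezh2 and Ezh1 encode alternative catalytic subunits of Polycomb repressive complex 2, which methylates H3K27. Ezh2 scored 558 with 155 tags in myogenic medium, 131 with 113 tags in adipogenic medium and 333 with 126 tags in LSD1(OE) cells. The TSS of F830010H11Rik lay within 373 bp of the centre of each Ezh2 peak. Ezh1 scored 143 with 56 tags in myogenic medium, at a site 1784 bp inside the gene, and 61.8 with 43 tags in LSD1(OE) cells, at the TSS itself, and had no promoter peak in adipogenic medium. The LSD1(OE) peak of Ezh1 would score about 33.9 without the scaling. The paralogs thus differed in the height and in the place of the peak.

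For H3K36, Setd2, which lays down the trimethyl mark behind RNA polymerase, scored 256 and 212 in the myogenic and LSD1(OE) libraries and had no promoter peak in adipogenic medium. Nsd1 and Ash1l had no promoter peak at a curated TSS in any library. Dot1l, the H3K79 methyltransferase, scored 235, 166 and 101. Setd5 scored 999, 279 and 480, and part of that signal lay nearer to the TSS of Gt(ROSA)26Sor, which was 514 and 643 bp from the centre of the adipogenic and LSD1(OE) peaks. Setd3, known to methylate actin, scored 346 and 274 in the myogenic and LSD1(OE) libraries and had none in adipogenic medium.

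Promoter peaks were called at all 5 SMYD genes in the myogenic library, at 2 in the adipogenic and at 3 in the LSD1(OE) library. Their median percentile among all genes with a promoter peak was 24.6 in myogenic medium, 39.2 in the adipogenic library and 62.3 in the LSD1(OE) one. Smyd1 was the lowest member of all in myogenic medium, with a score of 51.8 from 27 tags, 1474 bp inside the gene, and had none in the adipogenic or LSD1(OE) libraries. Without the scaling of ChIP tags its score would be about 27.3. A second Smyd1 peak in myogenic medium lay further inside the gene, at 11085 bp, with a score of 132 and 55 tags. Smyd5 scored 153 in myogenic medium alone. Smyd3 scored 212 and 278 in the myogenic and LSD1(OE) libraries. Smyd2 and Smyd4 had peaks throughout, with the highest scores in LSD1(OE) cells. The scores were 160, 176 and 222 at Smyd2 and 216, 75.2 and 461 at Smyd4. The densities were 1.26, 1.05 and 1.25 at Smyd2 and 1.59, 1.13 and 1.61 at Smyd4. By density LSD1(OE) cells were thus level with wild-type cells in myogenic medium. That log2 ratio was 0.0 (counting interval -0.48 to 0.48) at Smyd2 and 0.02 (-0.4 to 0.45) at Smyd4. At Smyd2 the adipogenic library had the lowest density but not the lowest score. The TSS of Rpa1 was within 90 bp of the centre of each Smyd4 peak.

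**Figure D2:**
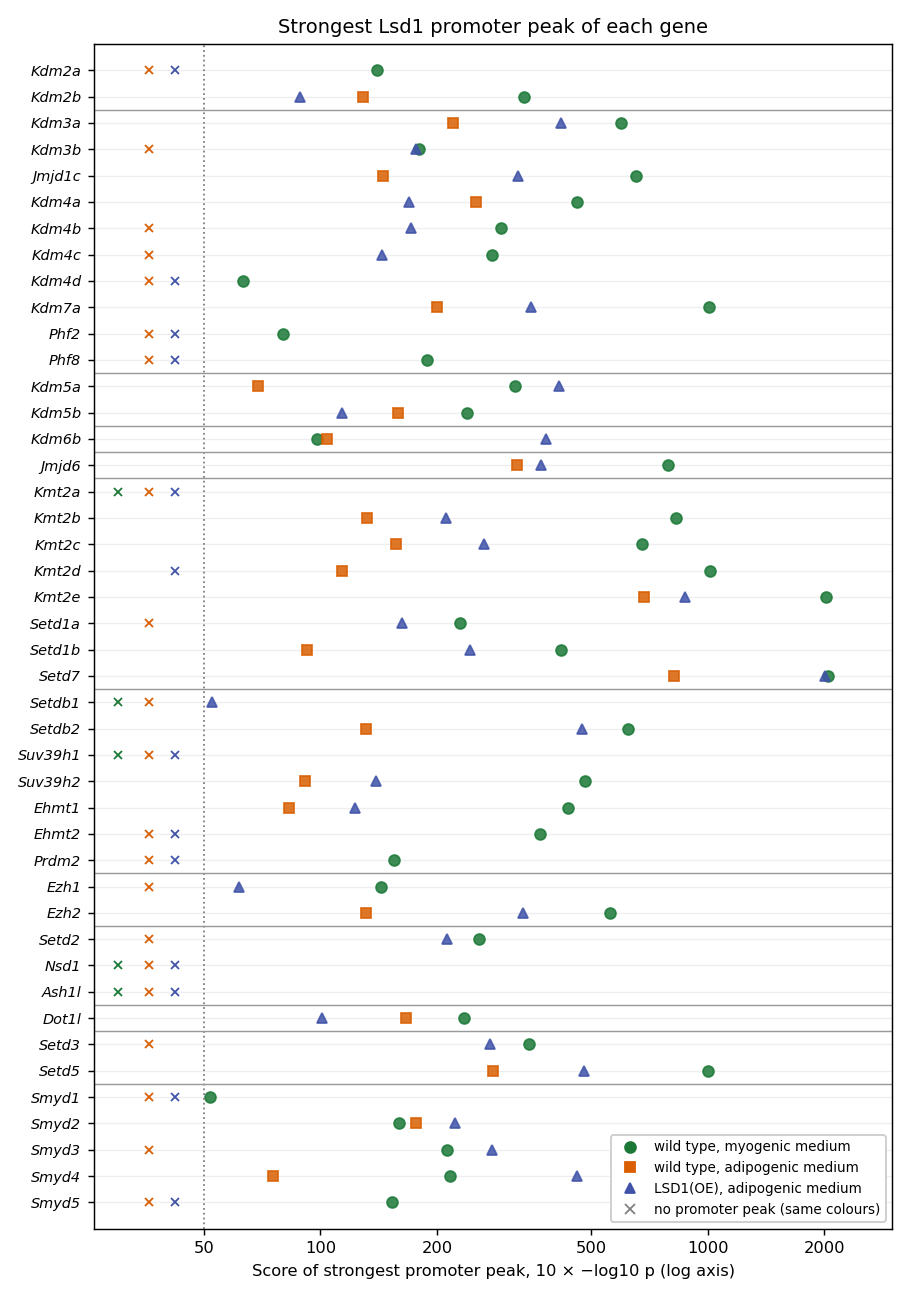
Score of the strongest Lsd1 promoter peak of each of the 44 genes (x axis, 10 × -log10 p, log axis), with genes in rows, lines between enzyme classes, 1 symbol per library, and a cross where no promoter peak was called; the dotted line is the cut-off score of 50. Setd7 stands highest in all 3 libraries (2045, 817 and 2005), and the crosses are most frequent in the adipogenic library.

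Over the members with a promoter peak the median of the strongest scores was 318, 145 and 243 in the myogenic, adipogenic and LSD1(OE) libraries, and over all genes with one it was 319, 141 and 204. In myogenic and adipogenic medium the middle of the list thus lay where that of all genes lay, although the list reached its highest percentiles at Setd7 (98.6, 97.5 and 98.8). The rank order of the scores was partly shared between libraries. Across the 23 members with a promoter peak in both media of wild-type cells Spearman's rho was 0.52, against 0.59 across all 6819 such genes, and across the 22 members shared by the adipogenic and LSD1(OE) libraries it was 0.30, against 0.62 across 6275 genes. These values describe genes of the same libraries, which are not independent replicates.

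Whether a member also had a promoter peak in adipogenic medium went with its height in myogenic medium. All 16 members with a myogenic score of at least 400 had one (84.4% of all such genes), 5 of 12 between 200 and 400 (51.6%), 1 of 7 between 100 and 200 (29.9%), and 1 of 4 below 100 (14.0%). The 23 members with a peak in both media had a median myogenic score of 558 and the other 16 a median of 184, with 368, at Ehmt2, the highest among them. In LSD1(OE) cells 15 of the 16 members with a score of at least 400 had a promoter peak (93.7% of all such genes), the exception being Kmt2d, and 11 of 12 between 200 and 400 (73.8%), the exception being Ehmt2. Between 100 and 200 it was 3 of 7 (54.8%), and below 100 it was 1 of 4 (36.7%). Scores just inside the caller's cut-off were 51.8 at Smyd1 and 52.4 at Setdb1.

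Most of the strongest promoter peaks covered a TSS of their gene: 32 of 39, 18 of 23 and 23 of 31 in the myogenic, adipogenic and LSD1(OE) libraries. Their summits were more often upstream (26, 15 and 21) than downstream (13, 8 and 10). Neither count was made over all genes, so neither can be called particular to the members. The median distance from summit to TSS was 240, 248 and 267 bp, against 174, 212 and 215 bp over all genes with a promoter peak, and 29, 16 and 21 of the members' 39, 23 and 31 summits lay within 500 bp, as did 79.1%, 74.5% and 73.9% of those over all genes. The peaks farthest from a TSS were those of Kdm6b, Setd5, Kmt2d, Ezh1, Kdm2a and Smyd1. In 6, 5 and 7 members the centre lay nearer to the TSS of another gene, among them Kmt2c and Kmt2e in every library, so Lsd1 there cannot be given to either gene from position alone.

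**Figure D3:**
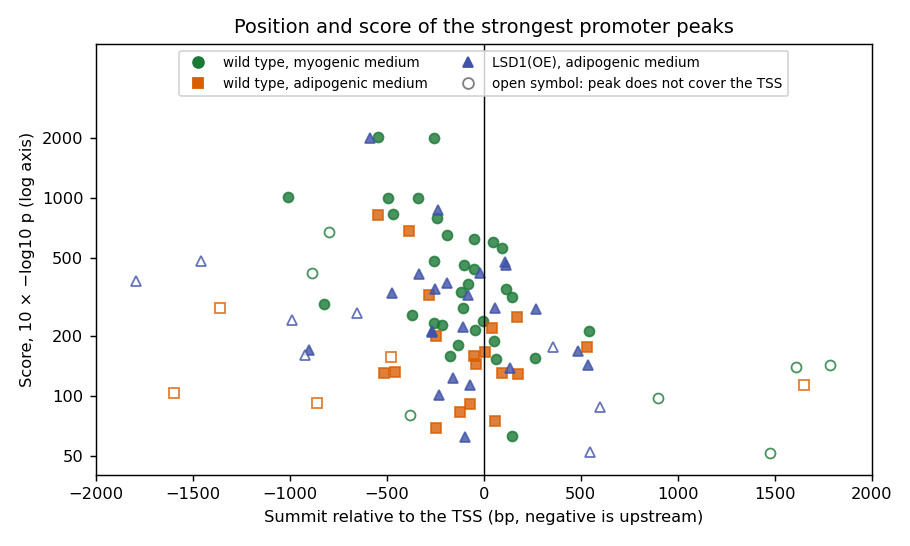
Position of the summit of each member's strongest promoter peak relative to the TSS (x axis, bp, negative is upstream) against its score (y axis, 10 × -log10 p, log axis) in the 3 libraries, with open symbols for peaks that do not cover the TSS. All summits with a score above 500 lay within 1007 bp of the TSS.

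Tag density (ChIP tags per kb of peak per 1000000 ChIP tags) compares libraries where the strongest promoter peaks overlapped. From myogenic to adipogenic medium it was lower at all 19 members that could be compared, as at 96.4% of the 6494 genes. The median log2 ratio was -0.50 over the members and -0.47 over all genes. The exact 95% counting interval lay below 0 at 14 of the 19, a share that was not counted over all genes. The ratio was -0.90 (95% counting interval -1.26 to -0.53) at Kmt2b, -0.88 (-1.26 to -0.50) at Setdb2, -0.81 (-1.18 to -0.43) at Kmt2c and -0.73 (-1.20 to -0.27) at Setd1b. At the other end it was -0.21 (-0.55 to 0.13) at Kdm3a and -0.24 (-0.54 to 0.05) at Setd5. Kmt2b and Setdb2 were the members whose interval lay wholly below the median of all genes (6.31% of all genes did), and no member's interval lay wholly above it. Such intervals cover counting error alone, and the density depends on where the caller set the ends of each peak.

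From wild-type to LSD1(OE) cells in adipogenic medium the density was higher at 18 of 22 members, and at 74.3% of the 5921 genes compared. Here the medians were 0.19 over the members and 0.16 over all genes. Kdm5a (0.61, 0.16 to 1.08), Setdb2 (0.56, 0.18 to 0.94), Setd7 (0.52, 0.29 to 0.74) and Smyd4 (0.52, 0.09 to 0.96) had intervals above 0. How many of all genes had such an interval was not counted. The intervals of Setd7 and Setdb2 lay above the median of all genes as well, as at 6.79% of all genes. That of Kdm4a lay wholly below this median, as at 4.22% of all genes. Kdm4a (-0.24, -0.62 to 0.14), Dot1l (-0.22, -0.72 to 0.26), Kdm5b (-0.15, -0.65 to 0.33) and Kdm2b (-0.13, -0.66 to 0.39) had lower values in LSD1(OE) cells, with intervals that span 0. Between LSD1(OE) cells and wild-type cells in myogenic medium the density was lower in LSD1(OE) cells at 22 of 26 members and at 85.6% of the 8459 genes, with medians of -0.25 and -0.30. Setd7 differed little there (-0.11, -0.33 to 0.11), whereas Kmt2e was lower (-0.68, -0.93 to -0.42). The interval of Kmt2e lay wholly below the median of all genes (7.06% of all genes did) and that of Kdm3a wholly above it (8.68%). These comparisons share libraries and are not independent of each other.

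**Figure D4:**
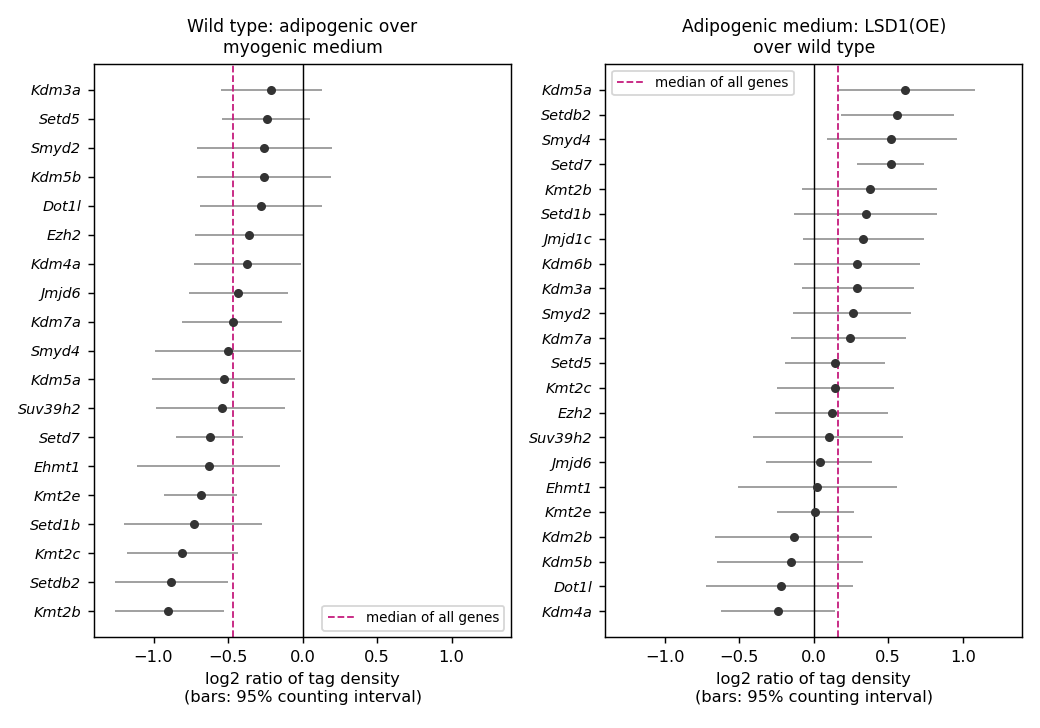
Log2 ratio of tag density (x axis) at overlapping strongest promoter peaks, adipogenic over myogenic medium in wild-type cells (left, 19 genes) and LSD1(OE) over wild-type cells in adipogenic medium (right, 22 genes), with bars for the exact 95% counting interval and a dashed line at the median of all genes. All points on the left lie below 0, from -0.90 to -0.21, and 18 of 22 on the right lie above it.

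Inside the genes, 32, 18 and 25 members had a peak within the gene body, beside 39.4%, 22.3% and 31.9% of all genes. The members are long, with a median of 63560 bp against 13451 bp over all genes, and 43 of them span at least 10000 bp. Of these 43, an internal peak was called at 18 (41.9%), 9 (20.9%) and 16 (37.2%) in the myogenic, adipogenic and LSD1(OE) libraries, beside 34.1%, 18.3% and 27.1% of all genes of that length. These counts moved with the threshold: the gene-body count in adipogenic medium became 11 and the internal count in LSD1(OE) cells 10 at a false discovery rate under 0.1%, and the internal count in myogenic medium became 10 with equal numbers of peaks per library. There were 51, 17 and 33 internal peaks with median scores of 76.0, 132 and 150. The centre lay in an intron at 50, 17 and 33 of them, and no TSS of another gene was within 2000 bp of any. At 31 of the 51 myogenic ones (60.8%), 1 of the 17 adipogenic ones (5.88%) and 14 of the 33 LSD1(OE) ones (42.4%) no peak of another library overlapped, beside 54.9%, 14.9% and 44.0% of all internal peaks.

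Smyd3, which encodes a methyltransferase of H3K4 and of non-histone proteins, held 18 of the 51, 5 of the 17 and 9 of the 33. It spans 566082 bp. The strongest internal peak of Smyd3 had its centre in an intron, with scores of 1705, 515 and 1582 from 386, 188 and 389 tags in the myogenic, adipogenic and LSD1(OE) libraries. In myogenic medium it outscored the Smyd3 promoter (212), and in adipogenic medium it was there although no promoter peak was called. The log2 ratio of its density was -0.10 (-0.36 to 0.15) from myogenic to adipogenic medium and 0.04 (-0.21 to 0.30) from wild-type to LSD1(OE) cells in adipogenic medium, each from the strongest peak alone. In both adipogenic libraries 2 peaks overlapped the single myogenic one, which was 4516 bp long and held 386 tags. Together they held 285 tags over 2930 bp in wild-type cells and 548 tags over 6086 bp in LSD1(OE) cells.

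The strongest internal peaks of Dot1l and Smyd4 also overlapped in every library. Dot1l scored 561, 613 and 340 at 2579, 3116 and 2754 bp from the TSS, above its own promoter in each library, and Smyd4 scored 537, 325 and 266 at 51450, 51539 and 51548 bp. Dot1l had further internal peaks in myogenic medium, of which that with a score of 259 overlapped none in the other libraries. From myogenic to adipogenic medium the log2 density ratio could be had for the strongest internal peak of 6 members. It was -0.72 (-1.16 to -0.29) at Prdm2, -0.47 (-0.88 to -0.08) at Nsd1, -0.38 (-0.78 to 0.02) at Kdm6b, -0.25 (-0.59 to 0.09) at Smyd4, -0.10 (-0.36 to 0.15) at Smyd3 and -0.04 (-0.35 to 0.27) at Dot1l, and the median over the 1575 genes compared was -0.28. Kdm4b scored 209, 378 and 683 at its highest internal peak. In both adipogenic libraries that was a site 5339 and 5150 bp from the TSS, where myogenic medium scored 150. Kdm4b had no promoter peak in wild-type cells in adipogenic medium, so its internal site was called where its promoter was not. Setd5 had a highest internal score of 175 in the adipogenic library, at a site where myogenic medium scored 61.4, and no internal peak in LSD1(OE) cells. Kdm2b scored 76.0 in the myogenic library and 279 in the LSD1(OE) one, at different sites, and had no internal peak in adipogenic medium.

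In 4 members the strongest internal peak sat on a TSS that RefSeq predicts but has not curated. Nsd1, the H3K36 methyltransferase gene without a promoter peak, scored 808, 108 and 179 there, with centres 27, 422 and 291 bp from a predicted TSS and 2301, 3045 and 2914 bp from the curated one. Prdm2 scored 502, 101 and 118 at 59, 239 and 254 bp from a predicted TSS that lies deep inside the gene. Kdm6b scored 477, 132 and 332 at 105, 86 and 154 bp from a predicted TSS, and Kdm2a scored 338 in myogenic medium and 125 in LSD1(OE) cells, at 99 and 155 bp. In myogenic medium the internal peaks of Kdm2a, Prdm2 and Kdm6b scored higher than their promoter peaks at the curated TSS (140, 155 and 98.2). With predicted transcripts counted, the members with a promoter peak were 41, 25 and 34, and Nsd1 gained one in every library.

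**Figure D5:**
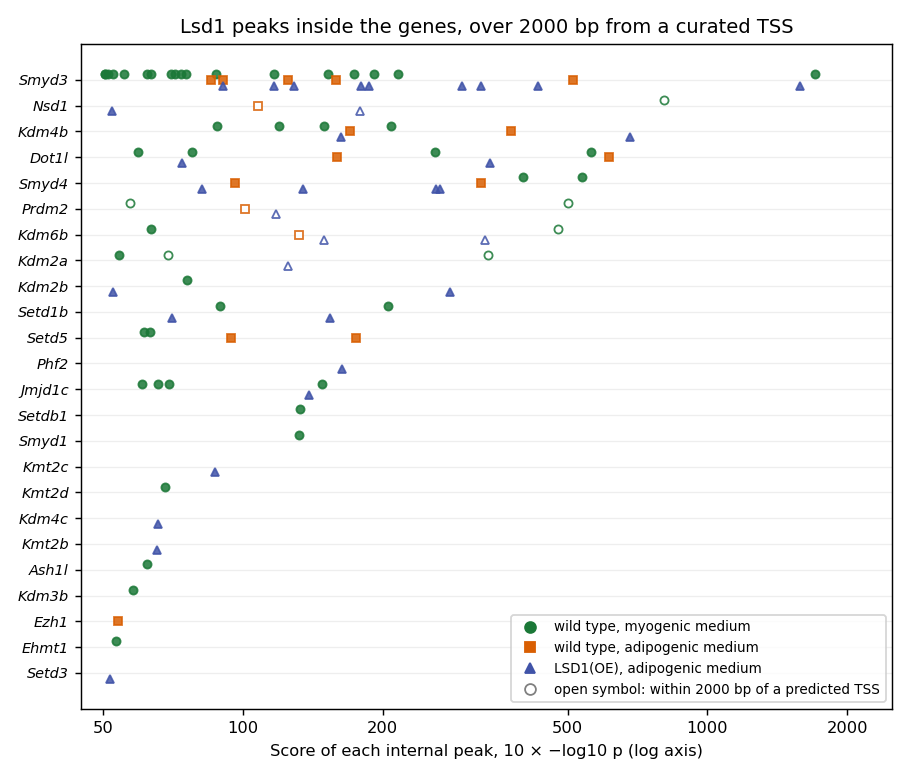
Score of every internal Lsd1 peak (x axis, 10 × -log10 p, log axis) of the 24 genes that had one (rows), with 1 symbol per library and open symbols for peaks within 2000 bp of a predicted TSS. Smyd3 carried the most peaks and the highest scores in the myogenic and LSD1(OE) libraries (1705 and 1582), and the open symbols belong to Nsd1, Prdm2, Kdm6b and Kdm2a.

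Related genes off the list were counted the same way. Among 20 other genes for lysine methylation enzymes, promoter peaks were called at 15, 7 and 13 in the myogenic, adipogenic and LSD1(OE) libraries, and Nsd2, Prdm16, Prdm6, Prdm8 and Setmar had none. Kdm6a, the paralog of Kdm6b, scored 847, 111 and 59.5. Kmt5b, which methylates H4K20, scored 1306, 311 and 901. Among 20 genes for partner proteins of the enzymes (subunits of H3K4 methyltransferase and Polycomb complexes and heterochromatin proteins), the counts were 20, 10 and 14. The partners of Ezh2 differed from it: Eed had a promoter peak in myogenic medium alone (a score of 386), and Suz12 scored 326 in myogenic medium, 789 in LSD1(OE) cells and none in adipogenic medium. In the H3K4 methyltransferase core, Ash2l and Dpy30 had peaks in all 3 libraries, Wdr5 scored 158 and 52.4 in the myogenic and LSD1(OE) libraries, and Rbbp5 scored 123 in myogenic medium alone.

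The motifs marked in the windows were counted in 200 bp around the summits of all peaks. In myogenic medium the E-box was present at 24 of 48 promoter peaks of the members and at 38 of 51 internal ones (74.5%), against 52.1% and 73.8% of all promoter and internal peaks. The GC box ran the other way, at 41.7% of the members' promoter peaks and 11.8% of their internal ones, against 42.2% and 6.22% of all. In LSD1(OE) cells the E-box was at 57.6% of the 33 internal peaks of the members and 74.6% of all internal peaks. In the adipogenic library it was at 58.8% of the members' 17 and 77.2% of all. Smyd3 held 9 of the 33, 5 of the 17 and, in myogenic medium, 18 of the 51, so the internal peaks of each library come from few genes. Its part in the E-box shares was not tested. A motif match is a description of the letters in the window and not a bound site.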

How the data were processed

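Lsd1 ChIP and input libraries of C2C12 cells, 1 of each per condition, were sequenced as 50-base single reads. The authors mapped them to mm10 with Bowtie2 and called peaks with MACS at p 1e-05, each ChIP against the input of its condition. The labels name version 1.41 and the file headers 1.4.2. The deposited peak lists give per peak a count of tags after duplicates were limited, a score (10 × -log10 p, with the smaller ChIP library scaled up to its input by 1.90, 1.28 and 1.82 in the myogenic, adipogenic and LSD1(OE) libraries), a fold enrichment over the local background (a ratio, not compared between libraries) and an FDR in percent, at most 0.73 in these lists. The deposited interval lists hold the same peaks and were not used.

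Peaks were assigned to TSSs and gene bodies of curated RefSeq transcripts (GRCm38.p6, the assembly of mm10; chromosome lengths were checked) in Python 3.11.15 with pandas 2.3.3 and SciPy 1.17.1. A TSS shared by genes counted for each. The CpG ratio covers 500 bp on either side of the TSS. Densities are tags per kb of peak per 1000000 filtered ChIP tags, and log2 ratios have exact conditional binomial intervals (95%, counting error only; tags are not independent molecules). Assignment and intervals were tested on simulated data. With 1 library per condition no test was made. Peak lists hold no expression, so cell identity was not checked.

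The members, gene lists and motifs were chosen with earlier results of these data known. Values in all libraries are given for the 5 highest promoter and internal scores per library, for members with a promoter peak in 1 library, and for 10 members chosen by role, and the other members were named afterwards to account for the list. Windows shown are the 3 strongest of each set, leaving out those with over 30 bases of untranslated exon (Kmt2e, Kmt2d, Smyd3 and Nsd1) and chromosome 18 (Kdm3b). The window of 1 further internal peak is not reported here.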

Additional observations from a re-analysis of the deposited data

How the results depend on the processing

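Every condition had a single library, so no replicate could be left out. No paired analysis was possible because no group has a second replicate. Of the recomputed values 7 moved by over 1.5 times the count, or by more than the spread of the ratios. With an FDR under 0.1% the members with a promoter peak in all 3 libraries were 13 in place of 22, those with a gene-body peak in adipogenic medium 11 in place of 18, and those with an internal peak in LSD1(OE) cells 10 in place of 16. With each peak given to the nearest TSS alone, 14 members had a promoter peak in all 3 libraries. With equal numbers of peaks per library, 10 members had an internal peak in myogenic medium in place of 18. Without division of tags by peak length the median log2 ratio was -0.78 in place of -0.50 for adipogenic over myogenic medium. For LSD1(OE) over myogenic medium it was -0.56 in place of -0.25. Ratios made this way take in the difference in length between the peaks compared. With equal numbers of peaks the members with a promoter peak were 33, 23 and 28, and without scaling of ChIP tags 36, 23 and 28. The latter used scores multiplied by the ratio of ChIP to input tags, not a new peak call. The counts lost Kdm4d, Phf2 and Smyd1 in myogenic medium and Ezh1, Kdm2b and Setdb1 in LSD1(OE) cells without that scaling.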
